A study of Mus musculus with 6 samples.

Results

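The genes described here were taken as markers of epithelium of the foregut and airways. They were followed in whole embryonic hearts, an organ that holds no airway epithelium. The set was chosen by gene symbol and consists of 9 genes, Epcam, Cdh1, Nkx2-1, Sftpc, Shh, Grhl2, Esrp1, Spint1 and Spint2, all of which were found among the 46983 genes of the count table. Of these 9, 5 passed a filter on low counts (Epcam, Cdh1, Grhl2, Spint1 and Spint2) and were tested among 17473 genes, while Nkx2-1, Sftpc, Shh and Esrp1 did not pass it and are described by their counts. RNA was sequenced from 3 mutant hearts (replicates 1, 5 and 10) and 3 control hearts (replicates 2, 3 and 5), each heart being a library of its own, at E13.5 of embryonic development. The labels give all embryos the strain C57BL/6 x DBA/2. The mutants carried the Tnnt2 Cre transgene and floxed Wt1 alleles (TnnT2Cre;Wt1flox in the labels). The controls are labelled wild type, and the methods of the study describe them as homozygous for the floxed Wt1 allele without Cre, so both groups share the floxed alleles and differ in Cre. The troponin T promoter of the transgene drives recombination in cardiomyocytes and in a part of the epicardium, and foregut epithelium is not a known target of it. The question asked of the genes was how much epithelial RNA each heart held, and whether it differed between the genotypes.

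Epithelial cells are held to one another by adhesion molecules such as E-cadherin and EpCAM, and transcription factors of the Grainyhead family and splicing factors of the ESRP family keep the epithelial state. The respiratory endoderm buds from the ventral foregut, expresses the homeobox factor Nkx2-1, which thyroid also expresses, and secretes Sonic hedgehog to the mesenchyme around it. Lung, trachea and oesophagus lie directly behind the embryonic heart, and the liver lies below it, across the septum transversum.

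The total count lay between 44244665 (wild type replicate 5) and 56373393 (wild type replicate 3), so that 3 counts, taken as the one-sided limit for a count of 0, correspond to 0.0532 to 0.0678 CPM in a heart (CPM, the read count divided by the library total in units of 1e+06). The intervals of single counts and ratios are exact and two-sided, and reach 3.69 for a count of 0. These limits and intervals cover counting error only, since reads that carry no molecular identifier can be copies of one molecule. The defining genes of heart muscle were high in every library, with 3875 to 4483 CPM for Tnnt2, the cardiac troponin T gene, where this and all further CPM values use library totals scaled by the TMM method. The targeted gene, Wt1, was counted at 2251, 1891 and 879 reads in wild type replicates 2, 3 and 5, and 921, 1746 and 1796 reads in mutant replicates 1, 5 and 10. The groups overlapped for Wt1 (log2 fold change −0.10, adjusted p = 0.990 from edgeR), and a count over the whole gene does not show whether the floxed stretch was deleted, so it is no check of the labels. Wild type replicate 5 stood apart from the other hearts in its trend with gene length. Over the 11795 genes whose mean log2 CPM exceeded 2, the deviation of a gene from its mean of all hearts had a Spearman's rho with gene length of −0.556 in this heart, against −0.0622 to 0.464 in the other 5. The highest value, 0.464, was that of mutant replicate 5, and wild type replicates 2 and 3 had 0.383 and 0.316. These values run across genes, which are not independent, and are descriptions only. Wild type replicate 3 stood apart in its hepatocyte genes, which summed to 831 CPM there and to 24.8 CPM or less in each of the other hearts. The fold changes of the 5 members tested are given with all hearts and with wild type replicate 3 or 5 left out. Fewer cells of a type and less RNA per cell cannot be told apart in such bulk samples.

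The stretches directly upstream of the genes are shown for the 4 members found in the RefSeq promoter table (GRCm38.p6), because Epcam, Nkx2-1 and Spint1 varied from heart to heart and Spint2 did not. Each run gives the 250 bases before the annotated start, 5′ to 3′ on the strand of the gene, and no exon of any GENCODE M21 gene overlaps them. Capitals mark the E-box CACCTG on either strand (CAGGTG when read on the other), which repressors of the ZEB and SNAI families bind, and ACCGGT, the inner letters of the Grainyhead consensus, which reads the same on both strands.
Epcam, chr17:87635729-87635978, plus strand: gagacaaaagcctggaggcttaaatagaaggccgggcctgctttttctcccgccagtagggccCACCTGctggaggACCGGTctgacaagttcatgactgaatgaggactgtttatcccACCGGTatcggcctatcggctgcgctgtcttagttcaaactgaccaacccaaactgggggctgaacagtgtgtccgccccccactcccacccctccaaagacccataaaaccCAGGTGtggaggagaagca
Nkx2-1, chr12:56536909-56537158, minus strand: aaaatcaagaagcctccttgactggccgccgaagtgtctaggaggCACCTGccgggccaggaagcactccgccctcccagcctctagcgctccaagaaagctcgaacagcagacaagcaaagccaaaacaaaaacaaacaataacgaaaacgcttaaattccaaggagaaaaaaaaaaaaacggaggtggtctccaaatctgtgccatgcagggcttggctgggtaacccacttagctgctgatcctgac
Spint1, chr2:119237110-119237359, plus strand: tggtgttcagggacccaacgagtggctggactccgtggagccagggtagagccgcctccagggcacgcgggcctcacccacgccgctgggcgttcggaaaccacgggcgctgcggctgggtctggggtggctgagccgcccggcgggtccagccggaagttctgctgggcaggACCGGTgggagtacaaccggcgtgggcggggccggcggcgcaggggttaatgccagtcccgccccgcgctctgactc
Spint2, chr7:29281978-29282227, minus strand: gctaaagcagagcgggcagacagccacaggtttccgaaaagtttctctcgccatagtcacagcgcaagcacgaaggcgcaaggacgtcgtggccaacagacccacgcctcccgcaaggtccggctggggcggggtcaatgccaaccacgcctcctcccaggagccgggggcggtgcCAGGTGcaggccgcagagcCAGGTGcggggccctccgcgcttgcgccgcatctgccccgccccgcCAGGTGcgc
The Epcam stretch held 2 E-boxes and 2 Grainyhead cores, and the Spint1 stretch held 1 Grainyhead core and 0 E-boxes. The Nkx2-1 stretch held 1 E-box and the Spint2 stretch held 3, and both held 0 Grainyhead cores. Of the 32851 stretches of the same length in the table, 17.2% held the E-box and 1.86% the Grainyhead core. The motifs were chosen with these sequences in view, they do not overlap one another here, and a match describes letters and not a bound site. The Spint1 stretch had the most C and G bases of the 4 (72.8%) and the Nkx2-1 stretch the fewest (50.8%).

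Epcam (ENSMUSG00000045394, chromosome 17 from 87635979 to 87651129 in GENCODE M21, GRCm38), which encodes the epithelial cell adhesion molecule, was counted at 10, 37 and 267 reads in the wild type hearts (replicates 2, 3 and 5). The mutant hearts (replicates 1, 5 and 10) had 35, 264 and 29 reads. Replicate 5 of each genotype was high and the other 4 hearts were low, so the groups overlapped. The level was 6.07 CPM in wild type replicate 5 and 5.04 CPM in mutant replicate 5, against 0.178 to 0.673 CPM in the other hearts. For comparison, 871 of the 17473 genes tested (4.98%) had these 2 hearts as their highest. The log2 CPM of Epcam spanned 4.82 over the 6 hearts, where the median gene tested spanned 0.61, and low counts widen such a span.

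Cdh1 (ENSMUSG00000000303, chromosome 8 from 106603351 to 106670246) encodes E-cadherin, the calcium-dependent cadherin of epithelial junctions. It had 3, 107 and 63 reads in the wild type hearts (replicates 2, 3 and 5) and 23, 147 and 15 in the mutant hearts (replicates 1, 5 and 10). The high hearts were thus 3, the same pair as for Epcam and wild type replicate 3, in which Epcam was low. The levels in these 3 hearts were 1.86 CPM (wild type replicate 3), 1.43 CPM (wild type replicate 5) and 2.80 CPM (mutant replicate 5).

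Nkx2-1 (ENSMUSG00000001496, chromosome 12 from 56531958 to 56536908), the homeobox factor of respiratory endoderm and thyroid, had 64 counts in wild type replicate 5 and 65 in mutant replicate 5. Mutant replicate 1 had 8 counts, and the remaining hearts (wild type replicates 2 and 3, mutant replicate 10) had 0. The exact 95% Poisson interval was 49.3 to 81.7 counts in wild type replicate 5 and 50.2 to 82.8 in mutant replicate 5, and 3.45 to 15.8 in mutant replicate 1. Each genotype therefore held hearts with this gene and hearts without a count of it. Shh (ENSMUSG00000002633, chromosome 5 from 28456815 to 28467256), the Hedgehog ligand that foregut and airway epithelium secretes, had 35 counts in wild type replicate 5, 27 in mutant replicate 5 and 4 in mutant replicate 1. It had 0 counts in the same 3 hearts in which Nkx2-1 had none. Exons of 9530036O11Rik on the opposite strand cover 15.7% of the exon bases of Shh, and the strand setting of the counting is not given in the sources used here, so reads in this stretch are uncertain.

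Sftpc (ENSMUSG00000022097, chromosome 14 from 70520949 to 70524081), which encodes surfactant protein C of distal lung epithelium, was near the limit of detection. It had 7 counts in mutant replicate 1, 0 in wild type replicate 3 and 1 in each of the other hearts. The hearts with the most Nkx2-1 were thus among those at 1 count, and the heart with 7 Sftpc counts (exact 95% Poisson interval 2.81 to 14.4) was the one with 8 Nkx2-1 counts.

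Grhl2 (ENSMUSG00000022286, chromosome 15 from 37233036 to 37363569) encodes a Grainyhead-like factor that maintains epithelial gene expression, Cdh1 among its known targets. It had 37, 52 and 69 reads in the wild type hearts (replicates 2, 3 and 5) and 39, 107 and 32 in the mutant hearts (replicates 1, 5 and 10). Unlike Nkx2-1 and Shh, it was counted in all 6 hearts, at 0.636 CPM or more. Of its exon bases, 1.96% lie opposite exons of Gm16136. Esrp1 (ENSMUSG00000040728, chromosome 4 from 11331933 to 11386783), a splicing factor that favours epithelial exons, had 3, 7 and 38 reads in the wild type hearts and 3, 88 and 1 in the mutant hearts, in the same order of hearts. Its high hearts were those of Epcam, and 2.01% of its exon bases lie opposite exons of Gm26663.

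Spint1 and Spint2 encode membrane-anchored Kunitz-type inhibitors of trypsin-like serine proteases such as matriptase, hepsin and the HGF activator. Spint1 (ENSMUSG00000027315, chromosome 2 from 119237362 to 119249527) had 7, 12 and 43 reads in the wild type hearts (replicates 2, 3 and 5) and 10, 47 and 17 in the mutant hearts (replicates 1, 5 and 10). Its high hearts were again wild type replicate 5 and mutant replicate 5. Spint2 (ENSMUSG00000074227, chromosome 7 from 29256323 to 29281912) had 3463, 2958 and 3171 reads in the wild type hearts and 2646, 2639 and 3037 in the mutant hearts. Its level was 50.3 to 72.1 CPM in the 6 hearts, and its log2 CPM spanned 0.52, less than that of the median gene. The deposited FPKM of Spint2, a level per length of gene, was 36.8 to 52.2 in the 6 hearts, while the other 8 genes had 2.96 FPKM or less in every heart. Spint2 thus did not show the order of hearts seen for Epcam, and its level did not separate hearts with Nkx2-1 counts from hearts without. It did not act as a marker of foregut or airway epithelium in these hearts.

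**Figure D1:**
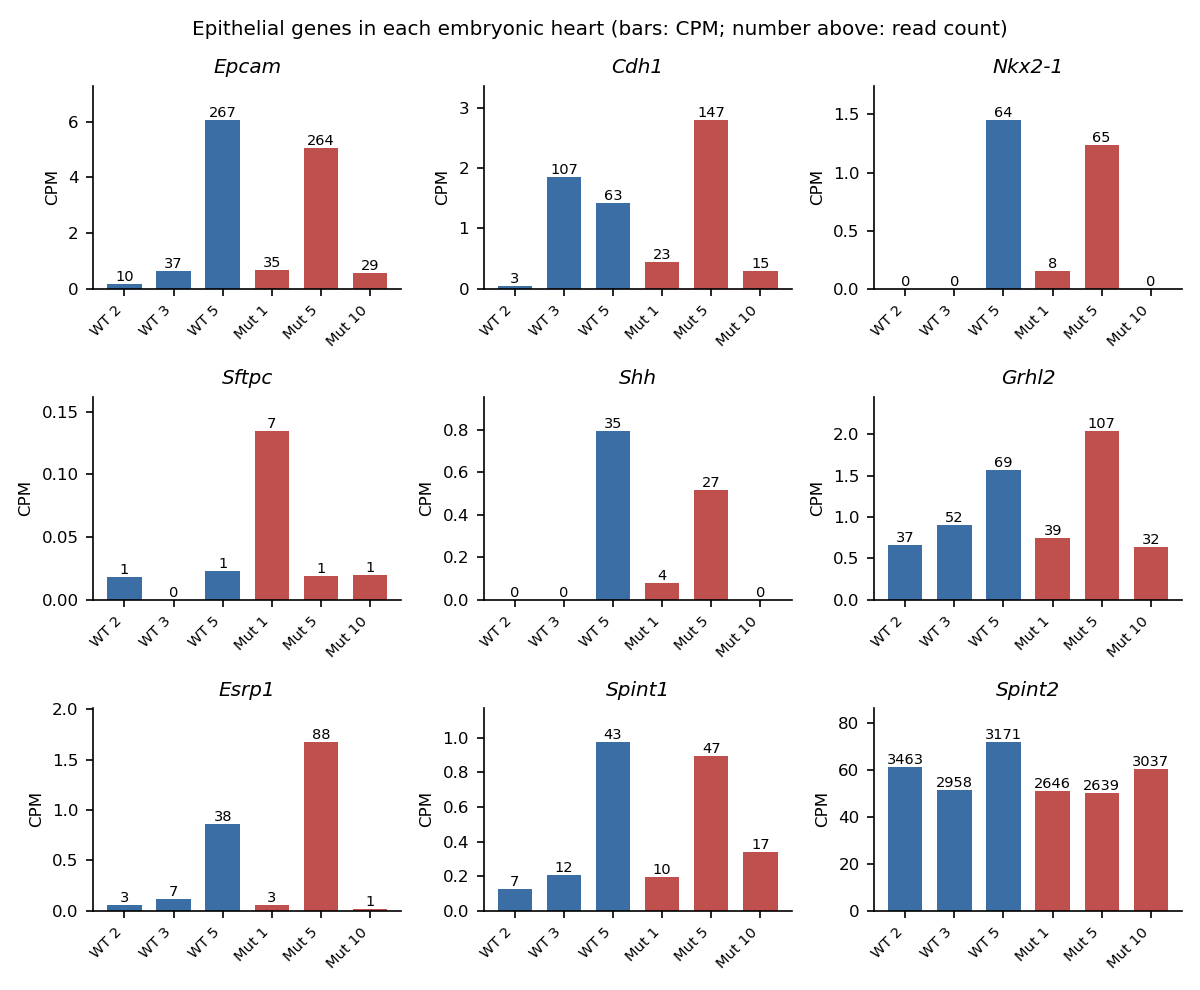
Levels of the 9 epithelial genes in each E13.5 heart. The y axis is CPM on a linear scale from 0, each bar is 1 heart (blue, wild type replicates 2, 3 and 5; red, mutant replicates 1, 5 and 10), and the number above a bar is its read count; Epcam, Nkx2-1, Shh, Grhl2, Esrp1 and Spint1 have their highest bars in replicate 5 of each genotype, Cdh1 also has 107 counts in wild type replicate 3, Sftpc has 7 counts or fewer, and Spint2 has 2639 to 3463 counts.

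Levels per length were next set against Epcam within each heart, as the ratio of FPKM values with an exact 95% interval for counting error. Nkx2-1 stood at 0.194 of the Epcam level in wild type replicate 5 (0.145 to 0.255), 0.199 in mutant replicate 5 (0.149 to 0.262) and 0.185 in mutant replicate 1 (0.0740 to 0.405). The 3 hearts with Nkx2-1 counts thus had one ratio within counting error, although Epcam itself had 35 counts in mutant replicate 1 and 264 or more in the others. For Shh the ratio was 0.0939 (0.0641 to 0.134), 0.0733 (0.0474 to 0.109) and 0.0819 (0.0211 to 0.229) in the same order of hearts, and these intervals overlapped as well. In wild type replicate 3, which had 37 Epcam counts, the upper bound of the ratio was 0.0847 for Nkx2-1 and 0.0751 for Shh. The Nkx2-1 bound lies below the interval of each replicate 5 heart and within that of mutant replicate 1. In wild type replicate 2, with 10 Epcam counts, the Nkx2-1 bound was 0.360, so a ratio like that of the other hearts was not detectable at this depth. In mutant replicate 10, with 29 Epcam counts, the Nkx2-1 bound was 0.110.

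The ratio of Cdh1 to Epcam did differ among hearts. It was 2.10 in wild type replicate 3 (1.43 to 3.14), against 0.172 in wild type replicate 5 (0.128 to 0.226) and 0.405 in mutant replicate 5 (0.329 to 0.497). These 3 intervals do not overlap, and no replicate error can be set on a ratio of 1 heart. Esrp1 likewise had 0.102 in wild type replicate 5 (0.0706 to 0.144) and 0.239 in mutant replicate 5 (0.186 to 0.305). For Spint1 the ratios of 0.215 (0.152 to 0.298) and 0.238 (0.170 to 0.325) in the same hearts overlapped. Grhl2 stood at 0.221 (0.167 to 0.289) in wild type replicate 5 and 0.347 (0.275 to 0.436) in mutant replicate 5, and at 0.945 to 3.17 in the hearts with little Epcam. The replicate 5 hearts also lay furthest apart in their trend with gene length (Spearman's rho −0.556 in wild type and 0.464 in mutant). FPKM with 1 fixed length per gene does not remove such a trend. Its part in the ratios to Epcam given here, alike or not, was not tested. Within wild type replicate 5 the order of levels per length was Epcam (2.96 FPKM), Grhl2 (0.655), Spint1 (0.636), Nkx2-1 (0.573), Cdh1 (0.507), Esrp1 (0.302), Shh (0.278) and Sftpc (0.0281). The counting intervals of neighbours in this order overlapped from Grhl2 to Shh, so these neighbours are not ordered, and the Sftpc interval lay below that of Shh.

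**Figure D2:**
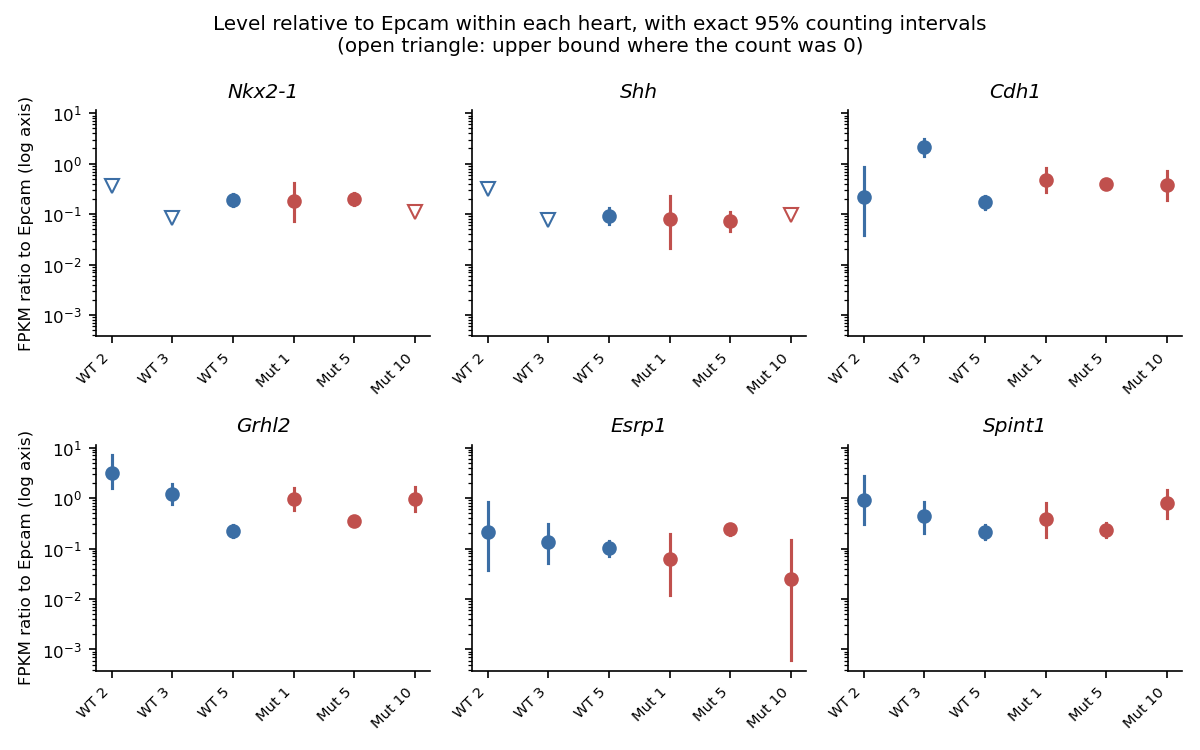
FPKM of 6 epithelial genes divided by the FPKM of Epcam in the same heart, on a log axis. Points are single hearts (blue, wild type; red, mutant), lines are exact 95% counting intervals and open triangles are upper bounds where the count was 0; Nkx2-1 and Shh keep near ratios of 0.19 and 0.08 in the 3 hearts that have counts, while Cdh1 reaches 2.10 in wild type replicate 3.

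The genotypes were then compared with edgeR's quasi-likelihood test on the counts, with the log2 fold change taken as mutant over wild type and the p adjusted over all 17473 genes by the Benjamini-Hochberg method. Of the 5 members tested, 0 had an adjusted p under 0.05, and over all genes tested this test called 0 (0%). At an unadjusted p under 0.05, 0 of the 5 members passed, against 1002 of all genes (5.73%), and DESeq2 gave 0 of the 7 members that had an adjusted p a value under 0.05 (that of Sftpc and Esrp1 was NA), against 132 of 19493 genes with an adjusted p (0.677%). The groups overlapped for all 9 members, while of the genes tested 11.2% did not overlap, 6.61% with the mutant hearts higher and 4.59% with them lower.

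The size of the difference was small beside its error for the genes of the epithelial pattern. Epcam stood at 2.30 ± 3.27 CPM (SD, n = 3) in the wild type group and 2.10 ± 2.55 CPM (SD, n = 3) in the mutant group. This is a log2 fold change of −0.11 with a standard error of 1.21 and an adjusted p of 0.996 from edgeR. Nothing in the labels says whether the embryos were littermates, and p-values measure the spread between these hearts. Cdh1 stood at 1.12 ± 0.944 and 1.18 ± 1.41 CPM, with a log2 fold change of 0.09 (standard error 1.08) and an adjusted p of 0.996 from edgeR. Differences of more than 2 on the log2 scale in either direction are within about 2 standard errors of both values, so the test does not show that the genotypes are alike. The log2 fold change was 0.14 for Grhl2 (standard error 0.52, adjusted p = 0.990 from edgeR) and 0.16 for Spint1 (standard error 0.84, adjusted p = 0.993 from edgeR).

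Spint2 had a far smaller error. It stood at 61.7 ± 10.3 CPM in the wild type group and 53.9 ± 5.62 CPM in the mutant group, with a log2 fold change of −0.19 (standard error 0.14) and an adjusted p of 0.983 from edgeR. For the members removed by the filter, the fit without a filter gave a log2 fold change of 0.01 for Nkx2-1 (standard error 1.38), −0.34 for Shh (standard error 1.42), 0.82 for Esrp1 (standard error 1.16) and 1.98 for Sftpc (standard error 1.51). The adjusted p of these 4 genes was 0.886 or more in that edgeR fit.

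The sign of the fold change for the genes of the epithelial pattern turned with single hearts, those low in Epcam as well as those high in it. Without wild type replicate 5 the log2 fold change of Epcam was 2.34 (standard error 1.02, adjusted p = 0.403 from edgeR), and without mutant replicate 5 it was −1.87. For Cdh1, leaving out mutant replicate 5 gave −1.59, leaving out wild type replicate 3 gave 0.71 and leaving out wild type replicate 5 gave 0.30. Without wild type replicate 3 the value was −0.56 for Epcam, 0.05 for Grhl2, −0.18 for Spint1 and −0.31 for Spint2. Spint2 had −0.07 when wild type replicate 5 was left out. Fits with a heart left out are not given here for Nkx2-1, Shh, Esrp1 and Sftpc. Spint1 had 1.50 when wild type replicate 5 was left out and −0.70 when mutant replicate 5 was. For Grhl2 the same pair of fits gave 0.55 and −0.59. When both of these hearts were left out, a fit added with the data in view, the log2 fold change was 0.59 for Epcam, −1.37 for Cdh1, −0.18 for Grhl2, 0.65 for Spint1 and −0.03 for Spint2. The adjusted p of Cdh1 was then 0.665 from edgeR, with Cdh1 at 107 counts in wild type replicate 3. Leaving out a heart low in Epcam also turned signs. Epcam had 0.31 without mutant replicate 1 and 0.34 without mutant replicate 10, while Cdh1, Grhl2 and Spint1 kept their signs in these fits. Without wild type replicate 2 the value was −0.48 for Cdh1, −0.10 for Grhl2 and −0.29 for Spint1, while Epcam kept its sign at −0.66.

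**Figure D3:**
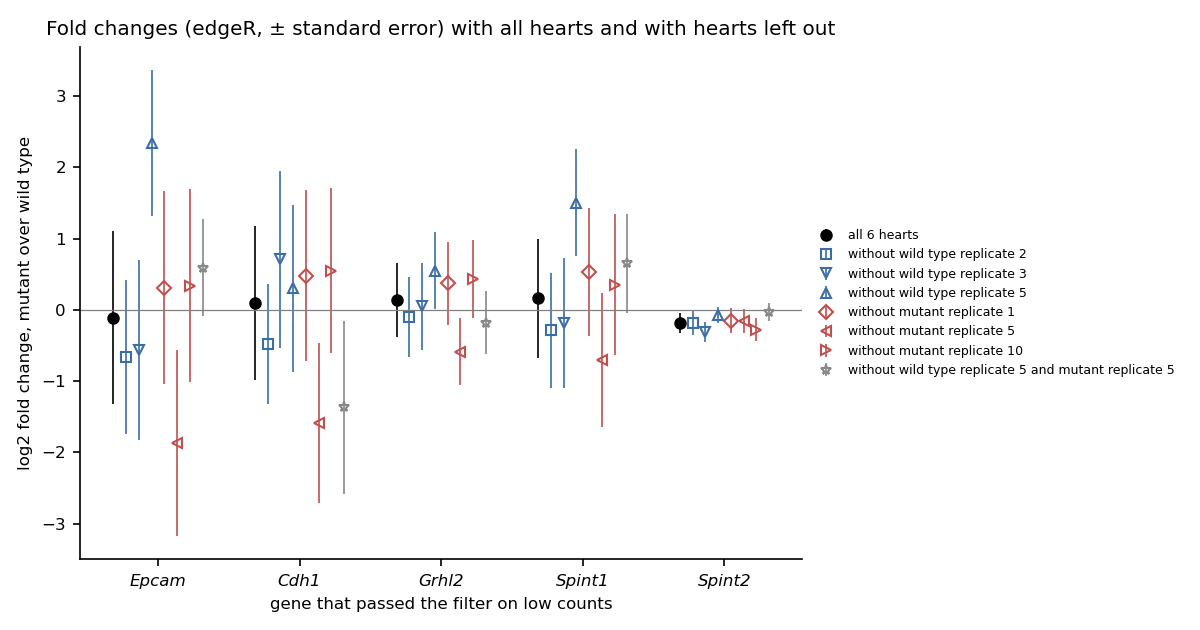
Log2 fold change of mutant over wild type for the 5 members that passed the filter on low counts, from edgeR, with bars of 1 standard error. Filled black points use all 6 hearts, open points leave out the heart or hearts named in the legend; the Epcam value moves between −1.87 and 2.34 when 1 heart is left out, and the Spint2 value stays below 0.

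Other markers of the same organs were read from fixed lists. The airway list held 23 further genes, 15 of which were tested, with 4 higher and 11 lower in the mutant, a median log2 fold change of −0.28 and 0 with an adjusted p under 0.05 in edgeR's test. At an unadjusted p under 0.05, 1 of the 15 was lower in the mutant and 0 higher, where 2.59% and 3.14% of all genes did so. The one was Ager, expressed by alveolar cells and also present in all 6 hearts, at 4.50 ± 0.983 CPM in the wild type group and 3.03 ± 0.649 CPM in the mutant group (log2 fold change −0.57, adjusted p = 0.865 from edgeR). Of the 20 genes of the list with any count, 7 had wild type replicate 5 and mutant replicate 5 as their highest hearts (Foxa1, Foxa2, Wnt7b, Sox2, Muc1, Scgb3a2 and Cldn18) and 13 did not. Among those tested it was 5 of 15, where 4.98% of all genes tested had this order, and the count was made with the values in view. Foxa1 had 0, 8 and 88 reads in the wild type hearts (replicates 2, 3 and 5) and 13, 164 and 0 in the mutant hearts (replicates 1, 5 and 10). Foxa2 had 0, 14 and 130 and then 8, 103 and 1 reads in the same order. Wnt7b, a Wnt ligand of lung epithelium, had 11, 37 and 198 reads in the wild type hearts and 20, 216 and 13 in the mutant hearts. Foxa3, the remaining forkhead factor of endoderm in the list, had 1, 34 and 2 reads and then 0, 4 and 7, and was highest in wild type replicate 3. Sftpa1, a surfactant protein gene, had 14, 19 and 3 reads and then 3, 9 and 15, and did not show the order of Epcam either. Of the markers of differentiated alveolar and secretory cells, Sftpd, Scgb1a1 and Bpifa1 had 0 counts in all 6 hearts, while others were counted at low levels, such as Sftpb at 9 to 38 reads and Scgb3a2 at 1 to 32. The summed level of the list was 88.3 to 107 CPM in the wild type group and 76.0 to 114 CPM in the mutant group, and most of it came from genes such as Etv5, Sox9 and Abca3 that had 723 reads or more in every heart.

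Of the genes likest to Epcam over the 6 hearts, measured as the root mean square difference of centred log2 CPM among 14159 genes with a mean of at least 1 CPM, the nearest was Wnt7b (0.40). Ccl21a (0.50), a chemokine gene, and Agtr2 (0.77), an angiotensin receptor gene, followed. The nearest to Cdh1 were Zfp97 (0.74), Foxf1 (0.82) and Stra6 (0.99), and to Spint1 they were Enpp2 (0.26), Gm11451 (0.43) and Fabp4 (0.44). Grhl2 had Angptl1 (0.21), Rpl30-ps1 (0.24) and Gm12191 (0.25) as its nearest. Spint2 had Bloc1s4 (0.05), Plau (0.05) and Ccdc61 (0.06). These distances are descriptions, and all genes of a heart share its library and depth.

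The Hedgehog pathway carries the signal of Shh through the receptor Ptch1 and Smo to the Gli factors. Of 17 listed genes other than Shh, 16 were tested, with 8 higher and 8 lower in the mutant, a median log2 fold change of 0.00, and 0 with an adjusted p under 0.05 in edgeR's test. Gas1, a co-receptor that binds Hedgehog, was the 1 gene with an unadjusted p under 0.05, at 83.7 ± 9.49 CPM in the wild type group and 61.2 ± 5.43 CPM in the mutant group (log2 fold change −0.45, adjusted p = 0.547 from edgeR). Over all genes tested, 5.73% had an unadjusted p under 0.05. Hhip, a Hedgehog-binding membrane protein induced by the pathway, had 8, 5 and 132 reads in the wild type hearts (replicates 2, 3 and 5) and 14, 159 and 0 in the mutant hearts (replicates 1, 5 and 10). Gli1, a target and effector of the pathway, had 0.941, 3.01 and 8.43 CPM in the wild type replicates and 1.62, 2.98 and 0.994 CPM in the mutant hearts. Hhip was thus high in both hearts with over 20 Shh counts, and Gli1 was highest in wild type replicate 5. Of the 16 genes tested, however, only 1, Hhip, had the replicate 5 hearts as its highest, where 4.98% of all genes tested did. Ptch1, which is also a target, stood at 35.9 to 41.5 CPM in all 6 hearts and showed no such order.

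Mesenchyme of the lung and foregut was read from 6 genes, all tested, with 1 higher and 5 lower in the mutant and a median log2 fold change of −0.49. Of the 6, 4 had the replicate 5 hearts as their highest, where 4.98% of all genes tested did. Hhip, 1 of these 4, also stands in the Hedgehog list. Tbx4, a T-box factor of lung mesenchyme, had 0.710, 1.29 and 5.34 CPM in wild type replicates 2, 3 and 5 and 1.17, 3.24 and 0.417 CPM in mutant replicates 1, 5 and 10. Foxf1, a forkhead factor of the same mesenchyme, had 0.426, 3.13 and 5.86 CPM and then 0.750, 3.34 and 0.378 CPM. Tbx4 and Foxf1 were highest in the pair of hearts with the most Epcam, and Foxf1 was also high in wild type replicate 3. Wnt2, a Wnt ligand of lung mesenchyme and of the cardiac inflow region, did not follow that order. It stood at 11.3 ± 0.544 CPM in the wild type group and 6.70 ± 1.46 CPM in the mutant group without overlap (log2 fold change −0.75, standard error 0.18, adjusted p = 0.405 from edgeR and 0.0252 from DESeq2). Wnt2 was the 1 gene of the 6 without overlap and the 1 with an unadjusted p under 0.05. Of all genes tested, 4.59% did not overlap with the mutant lower, and 2.59% had such a p and were lower. Whether foregut or lung tissue was part of the dissected samples was not tested.

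**Figure D4:**
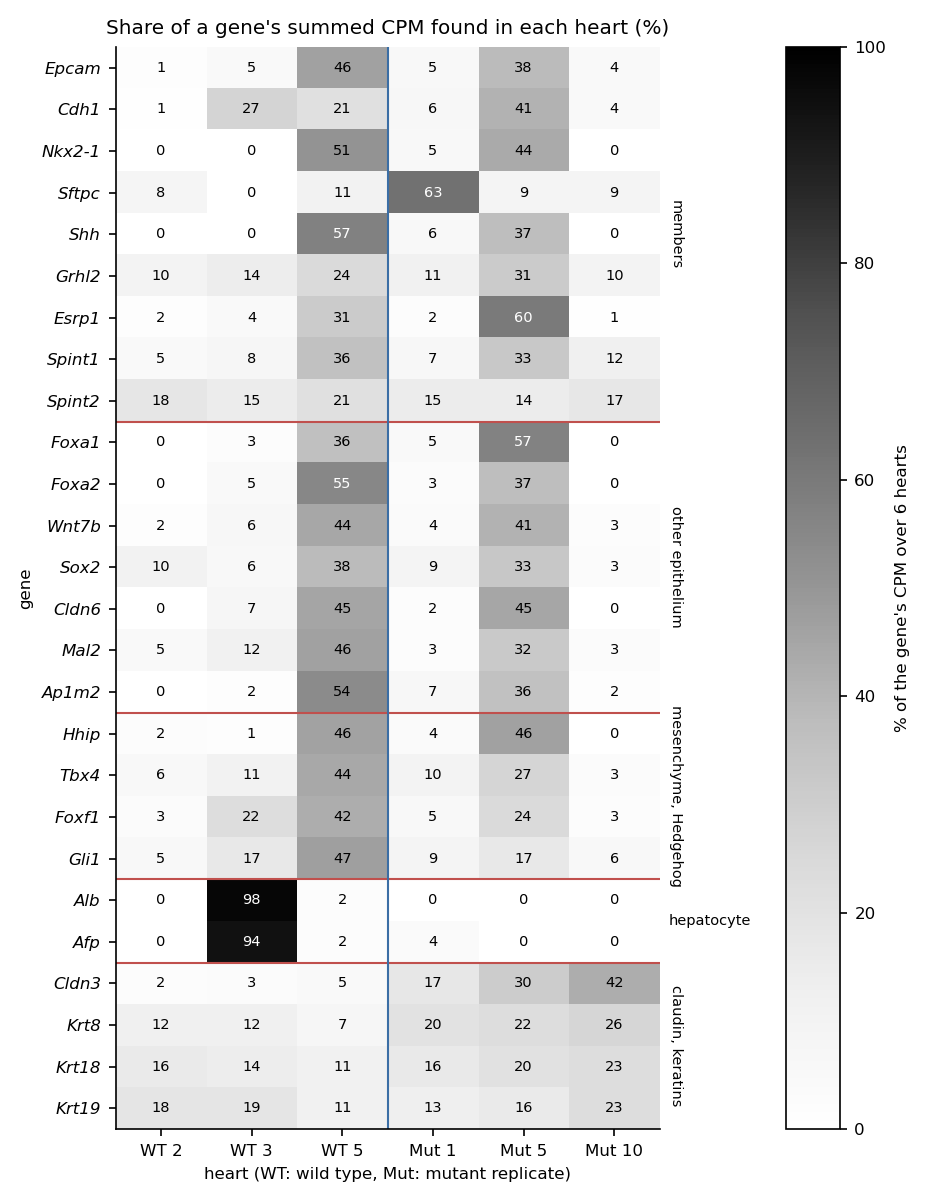
Share of a gene's CPM, summed over the 6 hearts, that was found in each heart, in percent (columns are hearts, rows are genes, darker is more). Nkx2-1, for example, has 51.1% in wild type replicate 5 and 43.5% in mutant replicate 5, Alb has 97.5% in wild type replicate 3, and Cldn3 has its largest shares in the 3 mutant hearts.

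Other organs that could lie beside the heart were read in the same way. Nkx2-1 is also a thyroid factor, and the thyroid factors Pax8 and Foxe1 had 3 counts or fewer in every heart, while Tg, the thyroglobulin gene, had 255 to 356 in every heart. Foxn1, Gcm2 and Pth, which define thymic epithelium and parathyroid, had 0 counts in all 6 hearts. Of the 15 genes of pharyngeal pouches, thymus, thyroid and parathyroid, 10 had over 3 counts in some heart and 5 were tested. Eya1, a factor of pharyngeal and placodal tissue, was among those with an unadjusted p under 0.05, at 3.13 ± 0.682 CPM in the wild type group and 1.69 ± 0.812 CPM in the mutant group (log2 fold change −0.89, adjusted p = 0.860 from edgeR). The summed level of this list was 25.7 to 31.3 CPM in the wild type group and 23.0 to 23.6 CPM in the mutant group.

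Liver genes marked wild type replicate 3, the heart with 107 Cdh1 counts. Alb (albumin) had 0, 17429 and 289 reads in the wild type hearts (replicates 2, 3 and 5) and 46, 2 and 9 in the mutant hearts (replicates 1, 5 and 10). Afp (alpha-fetoprotein) had 20620 counts in wild type replicate 3 and 2 to 772 in the other hearts. All 12 hepatocyte genes had over 3 counts in some heart, and their summed level was 831 CPM in wild type replicate 3, against 4.35 and 19.6 CPM in the other wild type hearts and 3.72 to 24.8 CPM in the mutant hearts. Of the 12, 9 passed the filter on low counts. Fga, Fgb and Serpina1a did not pass it, with 717, 803 and 296 counts in wild type replicate 3 and 12 or fewer in each other heart. In edgeR's test all 9 were lower in the mutant (median log2 fold change −3.24), 5 had an unadjusted p under 0.05 (against 2.59% of all genes) and 0 an adjusted one. DESeq2 gave a p for Trf only among the 12. The values of the groups overlapped for these 9 genes. The part of liver RNA in the Cdh1 count of this heart was not tested. Krt5, a keratin of basal cells, also had its highest count there, 147, and 1 count in each of the hearts with the most Epcam.

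Other genes of epithelia did not all share the pattern of Epcam. Of 44 such genes, 38 were tested, with 23 higher and 15 lower in the mutant and a median log2 fold change of 0.11. Of these 38, 8 had wild type replicate 5 and mutant replicate 5 as their highest hearts, where 4.98% of all genes tested had this order. In edgeR's test 0 had an adjusted p under 0.05, and 7 had an unadjusted p under 0.05, all higher in the mutant, where 3.14% of all genes did so. Cldn3, a claudin of tight junctions, stood at 0.906, 1.13 and 1.70 CPM in wild type replicates 2, 3 and 5 and 6.18, 11.2 and 15.7 CPM in mutant replicates 1, 5 and 10 (log2 fold change 3.15, standard error 0.38, adjusted p = 0.0991 from edgeR and 2.81e-15 from DESeq2). Cldn3 was therefore higher in every mutant heart, mutant replicate 10 included, in which Epcam had 29 counts and Nkx2-1 had 0. Krt8 and Krt18 were also among those with the smallest p, at a log2 fold change of 1.13 and 0.56 (adjusted p = 0.273 and 0.669 from edgeR, and 2.47e-04 and 0.284 from DESeq2). Without a filter on low counts, edgeR gave an adjusted p of 0.00339 for Cldn3 and 0.0385 for Krt8. Krt8 and Krt18, keratins of simple epithelia that mesothelium also makes, were lowest in wild type replicate 5, a heart with much Epcam. In mutant replicate 5, the other such heart, they stood at 40.3 and 31.1 CPM, above every wild type heart. Cldn6, a claudin of embryonic epithelium, had 0, 31 and 149 reads in the wild type hearts (replicates 2, 3 and 5) and 9, 176 and 1 in the mutant hearts (replicates 1, 5 and 10), and so followed Epcam and not Cldn3. The same held for Mal2, an apical transport protein, with 17, 44 and 134 and then 9, 109 and 10 counts.

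The stratified foregut list, with 9 genes and 7 tested, had 3 higher and 4 lower in the mutant. Krt17 and Krt14, keratins of basal layers, had a log2 fold change of 1.19 and 0.82 (adjusted p = 0.436 and 0.866 from edgeR, and 0.0171 and 0.655 from DESeq2). They were the 2 of the 7 with an unadjusted p under 0.05, where 3.14% of all genes were higher at this level. Krt17 was the 1 of the 7 whose groups did not overlap, where 6.61% of all genes did not overlap with the mutant higher. Mesothelium, an epithelium that covers the heart itself, was read from 16 genes, all tested, with 11 higher and 5 lower in the mutant and a median log2 fold change of 0.33. At an unadjusted p under 0.05, 6 were higher and 1 lower, where 3.14% and 2.59% of all genes were, and Krt8, Aldh1a1, Gpm6a and Upk1b had the smallest p (log2 fold changes of 1.13, 1.04, 0.78 and 0.96, adjusted p between 0.273 and 0.664 from edgeR). DESeq2 gave an adjusted p of 0.0404 for Aldh1a1, 0.118 for Gpm6a and 0.0927 for Upk1b. Krt8, Krt18 and Krt19 also stand in the list of 44 epithelial genes. Krt8 and Krt18 are thus counted among the higher genes of both lists, which are not separate. The summed level of the 16 mesothelial genes was 355 CPM in wild type replicate 5, the lowest of the 6 hearts, and 486 to 853 CPM elsewhere. The mesothelial genes thus did not rank the hearts as Epcam did.

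Of the genes around the Kunitz inhibitors, 8 of 12 were tested, with 3 higher and 5 lower in the mutant and a median log2 fold change of −0.10. St14 and Prss8 among them also stand in the list of 44 epithelial genes. Hgf, the hepatocyte growth factor, stood at 4.81 ± 2.34 CPM in the wild type group and 2.68 ± 0.286 CPM in the mutant group, and its receptor gene Met at 8.21 ± 1.51 and 11.3 ± 1.48 CPM (adjusted p = 0.827 for both from edgeR). St14, the gene of matriptase, had 2.13 to 3.29 CPM in the wild type group and 2.92 to 4.56 CPM in the mutant group. Prss8, the gene of the protease prostasin, had 6, 43 and 53 reads in the wild type hearts and 11, 50 and 15 in the mutant hearts. St14 was therefore present in all hearts, as Spint2 was, while Prss8 was low in those with little Cdh1. Tmprss4 and Spint3 had 0 counts in all 6 hearts. Of 9 mesenchymal genes, including the E-box-binding repressors Zeb1, Zeb2, Snai1 and Snai2, all 9 were tested, with 5 higher and 4 lower in the mutant, a median log2 fold change of 0.00 and 1 with an unadjusted p under 0.05 (against 5.73% of all genes). That was Snai1, at 11.6 ± 1.47 CPM in the wild type group and 7.86 ± 2.11 CPM in the mutant group (adjusted p = 0.821 from edgeR).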

How the data were processed

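The authors trimmed the reads of 6 hearts with Trim Galore, aligned them with RNA STAR to mm10 and counted uniquely mapped reads on GRCm38.p6 genes with featureCounts, per the study's methods; the submitters' processing notes name HTSeq and DESeq2. The authors deposited these counts, not normalized, and FPKM values, each of which equals the count over 1 fixed length per gene and the heart's total count (largest relative deviation 6.1e-14). A table of group mean FPKM was not used. Counts were compared with edgeR 4.0.16 in R 4.3.3 (quasi-likelihood test, TMM, filterByExpr at its defaults, count 10 and total 15, two-sided, no covariates, Benjamini-Hochberg adjusted p under 0.05). The standard error is the log2 fold change over the square root of F. With 3 hearts against 3, an exact permutation test of 1 value cannot go below 0.1 and was not used. DESeq2 1.42.0 and limma 3.58.1 (on log2 FPKM with a pseudocount of 1 or 0.1) were alternatives, as were other scalings and filters, an offset for gene length (loess, span 0.5) and each heart left out. The edgeR, DESeq2 and limma fits were tested on simulated data with known changes, where DESeq2 made more false calls than edgeR. The simulated counts were drawn with dispersions estimated by edgeR, without a trend with gene length and without a heart that stands apart. They therefore do not show which calls in the real hearts are false. Positions are from GENCODE M21 (GRCm38), the build of the files. The genes named are the 9 members, up to 4 genes per list with the smallest unadjusted p under 0.05 (or the smallest p where none passes), listed genes at 0 in every heart and the 3 nearest genes to each member tested. Foxa1, Foxa2, Foxa3, Sox2, Muc1, Scgb3a2, Cldn18, Sftpa1, Sftpb, Wnt7b, Cldn6, Mal2, Hhip, Gli1, Ptch1, Tbx4, Foxf1, St14, Prss8, Krt5, Tg, Wt1, Tnnt2, Afp, Pax8, Foxe1, Zeb1, Zeb2, Snai2, Etv5, Sox9 and Abca3 were chosen after their values were seen. Some genes that this rule names are not reported here. Members and lists were chosen with earlier results of these data known. The number of per-sample columns left unmapped was 0.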

Additional observations from a re-analysis of the deposited data

How the results depend on the processing

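The number of genes with an adjusted p under 0.05 was 0 in edgeR with all hearts, 132 with DESeq2, 34 without a filter on low counts, 13 with an offset for gene length, 54 when that offset was combined with leaving out wild type replicate 5, and 9 when both replicate 5 hearts were left out (an alternative chosen after seeing the data). With 1 heart left out it was 0 to 44, the 44 being with wild type replicate 5 left out. Of the 9 members, 0 had an unadjusted p under 0.05 with all hearts. With 1 heart left out this count was 0 to 1, and with the length offset and wild type replicate 5 left out it was 1, Epcam in both cases. The smallest adjusted p of the 5 members tested, over those of the 17 alternatives in which each could be fitted, was 0.388. Nkx2-1, Shh, Sftpc and Esrp1 are reported only from edgeR without a filter (adjusted p 0.886 or more) and from DESeq2 (1 for Nkx2-1 and Shh, NA for Sftpc and Esrp1).

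The sign of Epcam (−0.11 in the log2 fold change) turned to 2.36 with the length offset and wild type replicate 5 left out, to 0.02 and 0.26 with limma on log2 FPKM plus 1 and plus 0.1, and to 0.59 without both replicate 5 hearts; with 1 heart left out it lay between −1.87 and 2.34. That of Cdh1 (0.09) turned to −0.0031 with limma on log2 FPKM plus 1 and to −1.37 without both hearts, and lay between −1.59 and 0.71 with 1 heart left out. Grhl2 (0.14) turned to −0.18 without both hearts and lay between −0.59 and 0.55 with 1 left out. For Spint1 (0.16) the range with 1 left out was −0.70 to 1.50. Spint2 kept its negative sign in all 17 alternatives. The cause of these turns was not tested. Epcam, Grhl2 and Spint1 gave no value with a filter at 1 CPM in 3 hearts, since they did not pass it. No paired analysis was possible because the groups share only the replicate number 5. Counts under 10 in most hearts limit what can be said of Nkx2-1, Sftpc, Shh and Esrp1.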

Other observations

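The 20 genes nearest to Epcam over the 6 hearts, a list lengthened after the data were seen, had root mean square differences of 0.40 to 1.11 on the log2 scale, and 6 of them stand in the fixed lists (Wnt7b, Tbx4, Mal2, Foxf1, Gli1 and Sox2). The other genes included smooth muscle genes. Myh11, the smooth muscle myosin heavy chain gene, had 3.46, 3.74 and 12.8 CPM in wild type replicates 2, 3 and 5 and 2.06, 15.6 and 2.58 CPM in mutant replicates 1, 5 and 10. Actg2, an enteric-type smooth muscle actin gene, had 4.71, 5.15 and 14.2 CPM and then 8.60, 18.6 and 7.67 CPM. Both were highest in replicate 5 of each genotype. Cckar, a cholecystokinin receptor gene, had 1.03, 1.44 and 7.20 CPM in the wild type replicates and 0.577, 3.01 and 1.73 CPM in the mutant hearts, and Osr2, an odd-skipped related factor, had 0.373, 0.730 and 3.36 CPM and then 0.231, 1.26 and 0.179 CPM.

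Replicate 5 of each genotype was the highest pair of hearts for 0 of the tested erythroid, macrophage, platelet, endothelial and cardiomyocyte genes, but for 5 of 9 in the neural list. The share over all genes tested was 4.98%. The erythroid list summed to 15150, 16960 and 39290 CPM in wild type replicates 2, 3 and 5 and to 14900, 12480 and 42680 CPM in mutant replicates 1, 5 and 10, so its high hearts were wild type replicate 5 and mutant replicate 10; none of its 13 genes had an unadjusted p under 0.05, and Hba-a2 had the smallest (log2 fold change 1.94, adjusted p = 0.931 from edgeR). The macrophage list had 9 of 10 genes at an unadjusted p under 0.05, all higher in the mutant, with Timd4 at a log2 fold change of 2.63, C1qa at 0.98, C1qb at 0.76 and Adgre1 at 0.73 (adjusted p between 0.213 and 0.580 from edgeR). The share of all genes tested was 3.14%. DESeq2 gave an adjusted p of 2.56e-05 for Timd4, 3.04e-04 for C1qa, 0.00509 for C1qb and 0.0955 for Adgre1, and edgeR without a filter gave 0.0387 for Timd4 and 0.0385 for C1qa. Of 8 megakaryocyte and platelet genes, 5 had an unadjusted p under 0.05, all higher in the mutant, and Ppbp, Tubb1 and Pf4 had log2 fold changes of 1.98, 1.33 and 0.84 (adjusted p between 0.273 and 0.606 from edgeR), against 3.14% of all genes. DESeq2 gave an adjusted p of 2.43e-05 for Ppbp, 7.83e-04 for Tubb1 and 0.0850 for Pf4, and edgeR without a filter gave 0.0385 for Ppbp. Both lists were higher in mutant than in wild type hearts in their summed levels, at 232 to 240 against 132 to 194 CPM and at 41.8 to 60.1 against 25.2 to 35.5 CPM. In the neural list, 9 of 10 genes were tested, all 9 were lower in the mutant and 0 had an unadjusted p under 0.05 (Stmn2 had the smallest, log2 fold change −0.76, adjusted p = 0.915 from edgeR). Endothelial genes had 1 of 8 at an unadjusted p under 0.05 (Emcn, log2 fold change 0.25, adjusted p = 0.847 from edgeR) and cardiomyocyte genes 1 of 10 (Myl7, log2 fold change −0.48, adjusted p = 0.860 from edgeR). Over all genes tested, 5.73% had an unadjusted p under 0.05 in either direction. The hepatocyte genes with the smallest p were Alb, Apoa2, Ttr and Apob, at log2 fold changes of −8.12, −3.24, −3.18 and −2.90 (adjusted p between 0.659 and 0.847 from edgeR), each with its highest count in wild type replicate 3.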
